A study of Mus musculus with 6 samples.

Results

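The IL-1 family antagonist and receptors are 9 genes, chosen by name, of the 35896 genes with a matched transcript in day 2 Th9 cultures. They are the receptor antagonist Il1rn, the IL-1 receptors Il1r1 and Il1r2, the shared accessory chain Il1rap, the IL-33 receptor Il1rl1, the IL-36 receptor Il1rl2, the IL-18 receptor chains Il18r1 and Il18rap, and the single immunoglobulin receptor Sigirr. Of these, 7 were in the gene-level table of the authors, and Il1r1 and Il1r2 were read from transcript counts alone. Expression in 3 WT and 3 Cul5 cKO cultures was measured by poly-A RNA-seq, to ask which genes depend on Cullin 5 (Cul5), the scaffold of a family of ubiquitin ligases, in Th9 cells. Naive CD4+ T cells (CD25-, CD62L high, CD44 low) of C57BL/6 mice, 8 to 10 weeks old by the account of the study, were cultured for 48 h. Cultures of both genotypes received plate-bound anti-CD3 (2 μg/ml), soluble anti-CD28 (1 μg/ml), IL-4 (20 ng/ml), TGF-β (2.5 ng/ml) and anti-IFN-γ (10 μg/ml). Cul5 cKO cells came from Cul5fl/fl mice carrying CD4-Cre, which recombines the floxed gene in developing T cells, so T cells of both the CD4 and CD8 lineages lack it. WT cells came, by the account of the study, from Cul5fl/fl littermates lacking CD4-Cre, so the genotypes also differ in carrying Cre. The cultures belonged to 1 experiment, and the labels do not say whether replicates were separate animals, so p-values measure the spread between these samples.

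Cytokines of the IL-1 family bind a ligand-specific receptor chain, which then recruits an accessory chain and signals through MyD88 and IRAK kinases to NF-κB. The family has several brakes. The antagonist encoded by Il1rn occupies IL1R1 without recruiting the accessory chain, IL1R2 is a decoy with no signalling domain, and SIGIRR dampens receptor complexes. In T helper cells IL1RL1, also called ST2, is known from Th2 cells and regulatory T cells, and the IL-18 receptor from Th1 cells.

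The antagonist gene has 2 groups of transcription starts, and these are shown because its transcripts were divided by them below. Il1rn lies on chromosome 2 at 24336853 to 24351494 (GRCm38, plus strand). In the annotation, transcripts of the upstream start include Il1rn-204 with 159 codons, the intracellular form. Those of the downstream start, 8457 bp further on, include Il1rn-201 with 178 codons, the secreted form. The RefSeq promoter windows (GRCm38.p6, plus strand, 250 bases before to 50 after the start) follow, with the letters matching a searched motif in capitals.

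Il1rn upstream start, chr2:24336610-24336909: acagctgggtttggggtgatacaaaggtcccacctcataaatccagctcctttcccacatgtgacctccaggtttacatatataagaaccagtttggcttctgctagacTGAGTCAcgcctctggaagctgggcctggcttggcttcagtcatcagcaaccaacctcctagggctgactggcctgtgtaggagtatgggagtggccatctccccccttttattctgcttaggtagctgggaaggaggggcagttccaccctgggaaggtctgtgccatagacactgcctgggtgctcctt

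Il1rn downstream start, chr2:24345041-24345340: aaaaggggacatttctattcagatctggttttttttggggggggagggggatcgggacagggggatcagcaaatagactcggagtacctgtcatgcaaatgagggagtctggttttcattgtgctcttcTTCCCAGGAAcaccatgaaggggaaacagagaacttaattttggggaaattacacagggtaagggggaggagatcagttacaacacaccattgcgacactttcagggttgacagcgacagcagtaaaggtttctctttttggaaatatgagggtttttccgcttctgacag

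Il1rl1 distal start, chr1:40429320-40429619: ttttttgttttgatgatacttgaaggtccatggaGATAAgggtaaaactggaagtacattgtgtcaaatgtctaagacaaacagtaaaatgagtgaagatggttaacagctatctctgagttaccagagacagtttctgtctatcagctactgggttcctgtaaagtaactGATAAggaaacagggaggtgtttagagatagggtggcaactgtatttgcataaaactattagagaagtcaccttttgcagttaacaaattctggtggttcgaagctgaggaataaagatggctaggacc

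The Il1rl1 window is the distal of 2 starts, shown because transcripts from it were counted almost entirely in 1 library. The motifs searched were a STAT motif with a spacing of 3 (TTCNNNGAA), a STAT motif with a spacing of 4 (TTCNNNNGAA), an AP-1 motif (TGANTCA) and a GATA motif (GATAA), each on both strands. No match overlapped another in the windows shown. The upstream Il1rn window held the AP-1 motif as TGAGTCA, 141 bases before the start, and 7.81% of the 32851 promoter windows of this length held that motif. The downstream Il1rn window held the STAT motif with a spacing of 4 as TTCCCAGGAA, 121 bases before the start, against 6.95% of all windows. The distal Il1rl1 window held the GATA motif at 2 positions, and 25.4% of all windows held at least 1. Of the 9 genes, 8 had RefSeq windows, 14 in all. Of these 14, 5 held the STAT motif with a spacing of 4, 2 the STAT motif with a spacing of 3 (8.30% of all windows), 1 the AP-1 motif and 4 the GATA motif. Some windows of 1 gene overlap, and the 5 windows with the STAT motif of spacing 4 hold 3 distinct sites. A match is a run of letters and was not tested for binding.

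Library depth ranged from 3944803 to 23454552 estimated counts, with WT replicate 3 the shallowest. The floor of detection, 3 counts, corresponded to 0.759 CPM (counts scaled to the library total) in WT replicate 3 and to between 0.128 and 0.133 CPM elsewhere. This floor covers counting error only. The targeted gene followed the labels, with Cul5 at 66.2 ± 2.67 CPM (SD, n = 3) in WT cells and 12.6 ± 1.82 CPM in Cul5 cKO cells, a log2 fold change of -2.39 ± 0.115 (SE). All 8 CD4 T cell markers were above the floor in every library. All 8 had a lower fitted level in Cul5 cKO, with a median log2 fold change of -0.15. Groups did not overlap for 5 of the 8, where they did not for 27.5% of all genes tested. The costimulatory receptor gene Cd28 was the 1 DEG among these markers (log2 fold change -1.17 ± 0.150, edgeR adjusted p = 0.0205). Their part in the members' values was not tested. Il9, the cytokine that defines Th9 cells, was between 298 and 1021 CPM. Of the 12925 genes that passed the expression filter, 133 were DEGs at an adjusted p under 0.05 (1.03%), 79 of them higher in Cul5 cKO (0.611%). Cul5 cKO replicate 2 stood apart in markers of some other lineages, but every library held markers of other cells. The 6 mast cell and basophil markers summed to 36.1 CPM there, against 0.598 to 2.53 CPM in the WT libraries and 0.738 and 2.36 CPM in the other Cul5 cKO libraries. The 6 neutrophil markers summed to 45.2 CPM there and to between 0.213 and 1.02 CPM elsewhere, with Ly6g and Retnlg at 0 in every library. Mpo made up most of that sum in Cul5 cKO replicate 2. The 8 monocyte and macrophage markers summed to 14.4 CPM there, against 5.39 to 10.7 CPM in the other libraries. The 6 B cell markers summed to 82.0 to 113 CPM in WT and to 42.2, 35.5 and 121 CPM in Cul5 cKO. The 6 NK and CD8 T cell markers summed to 9.86 to 16.1 CPM in WT and to 10.1, 19.4 and 21.8 CPM in Cul5 cKO. The isolation of naive CD4+ T cells is meant to deplete such cells.

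Il1rn, whose product blocks IL-1 at its receptor, was the member with the clearest difference between genotypes. Its level in the WT libraries was 20.8, 23.4 and 22.8 CPM. In the Cul5 cKO libraries it was 60.6, 53.4 and 70.2 CPM. Every Cul5 cKO library was above every WT library, with means of 22.4 ± 1.36 CPM for WT against 61.4 ± 8.44 CPM for Cul5 cKO (SD, n = 3). The fitted level in Cul5 cKO was 2.75-fold that in WT, a log2 fold change of 1.46 ± 0.116 (SE). The genes were selected with this contrast in view, so the values of the 9 genes are descriptions and carry no p. Il1rn was the 1 member among the 8 tested that was a DEG and the 1 whose groups did not overlap. Of all genes tested, 1.03% were DEGs, 0.611% were DEGs higher in Cul5 cKO, and groups did not overlap for 27.5%. Nothing is read from the members' counts. The authors' table gave the same direction for Il1rn, 4.49, 4.67 and 4.80 log2 CPM in WT and 5.94, 5.86 and 6.16 in Cul5 cKO.

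Cul5 cKO replicate 2, the library with granule genes, had the lowest Il1rn level of its group. The log2 fold change without that library was 1.56, and it ranged from 1.36 to 1.56 with any 1 library left out. However, Il1rn was no longer a DEG without WT replicate 2 (log2 fold change 1.51) or WT replicate 3 (1.47). Over all genes, DEGs numbered 2 to 316 with 1 library left out, and nothing is read from these calls. Marker sums of B cells and of NK and CD8 T cells were highest in Cul5 cKO replicate 3, which had most Il1rn. In Cul5 cKO replicate 1 neither sum was above the WT range. The part of other cells in the Il1rn value was not tested.

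**Figure D1:**
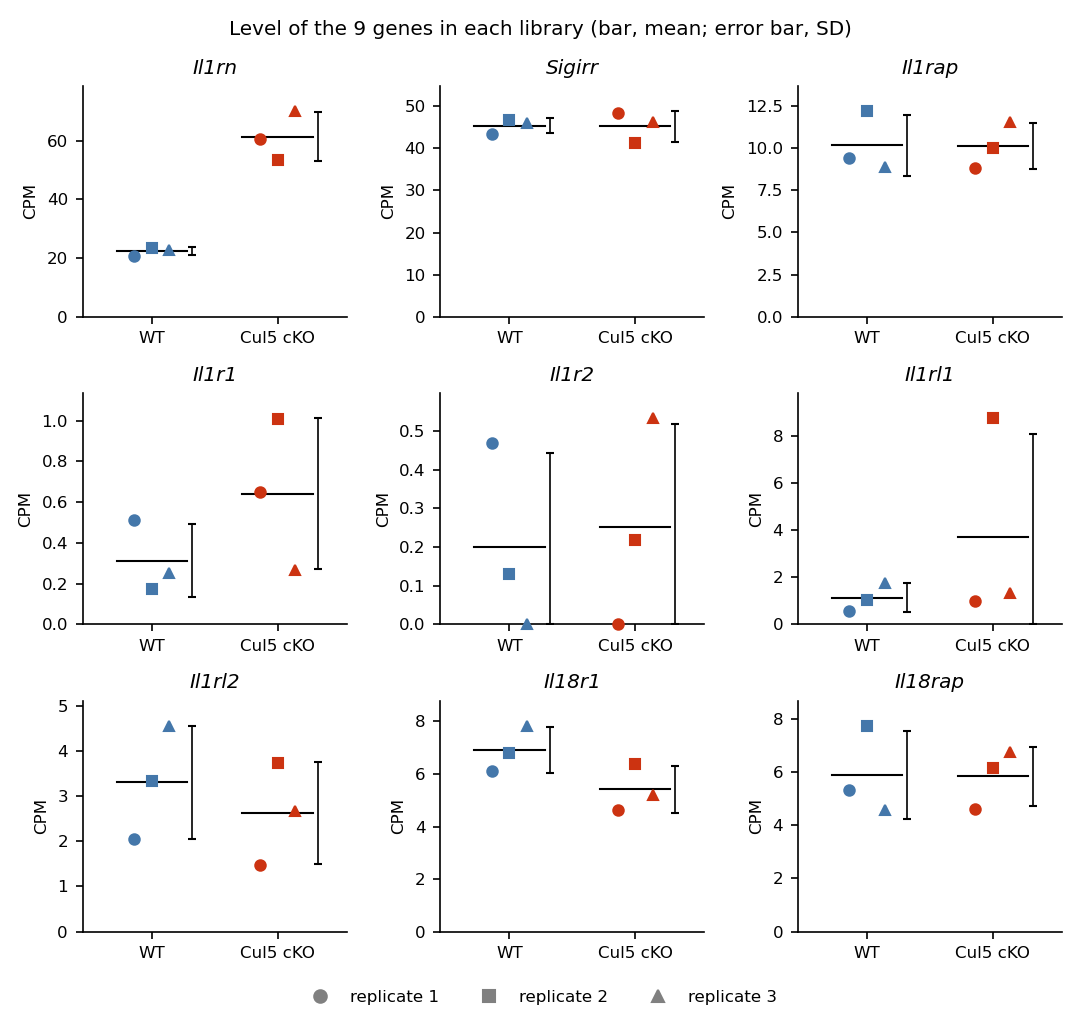
Each panel shows 1 gene, with the CPM of each library on the vertical axis for WT (blue) and Cul5 cKO (red), the group mean as a bar and the SD as an error bar that ends at 0. Il1rn is the panel in which all Cul5 cKO points lie above all WT points, and Il1rl1 is high in Cul5 cKO replicate 2 alone.

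Both groups of Il1rn transcripts were more abundant in Cul5 cKO cells. Transcript levels are in TPM, transcript counts scaled by length and library total. The secreted form, Il1rn-201, was at 13.8, 15.7 and 13.6 TPM in WT and 40.6, 35.3 and 46.1 TPM in Cul5 cKO. The intracellular form, Il1rn-204, was lower throughout, at 0.834, 1.32 and 0.483 TPM in WT and 3.12, 2.30 and 3.25 TPM in Cul5 cKO. Neither form overlapped between genotypes, and mean TPM was 2.83-fold and 3.28-fold that of WT, respectively. The third coding form, Il1rn-202 with 162 codons, overlapped between genotypes, with means of 4.91 ± 2.5 and 6.24 ± 0.758 TPM (SD, n = 3). Summed over its transcripts, the upstream start gave 4.22 ± 1.97% of Il1rn TPM in WT and 7.45 ± 1.40% in Cul5 cKO. The highest WT share, 6.02%, and the lowest Cul5 cKO share, 6.06%, nearly touched. Il1rn-204 alone gave 4.22 ± 1.97% in WT and 5.49 ± 0.645% in Cul5 cKO, and the genotypes overlapped. The rest came from Il1rn-205, a 52-codon transcript with 4.05 and 2.28 estimated counts in Cul5 cKO replicates 2 and 3 and 0 elsewhere. By shares of estimated counts the genotypes overlapped, at 6.46 ± 2.65% in WT and 8.03 ± 0.467% in Cul5 cKO, and WT replicate 2 (8.99%) was above every Cul5 cKO library. The upstream start rested on 3.33 estimated counts in WT replicate 3 and on 32.6 to 127 elsewhere, and kallisto divides reads between transcripts that share exons.

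**Figure D2:**
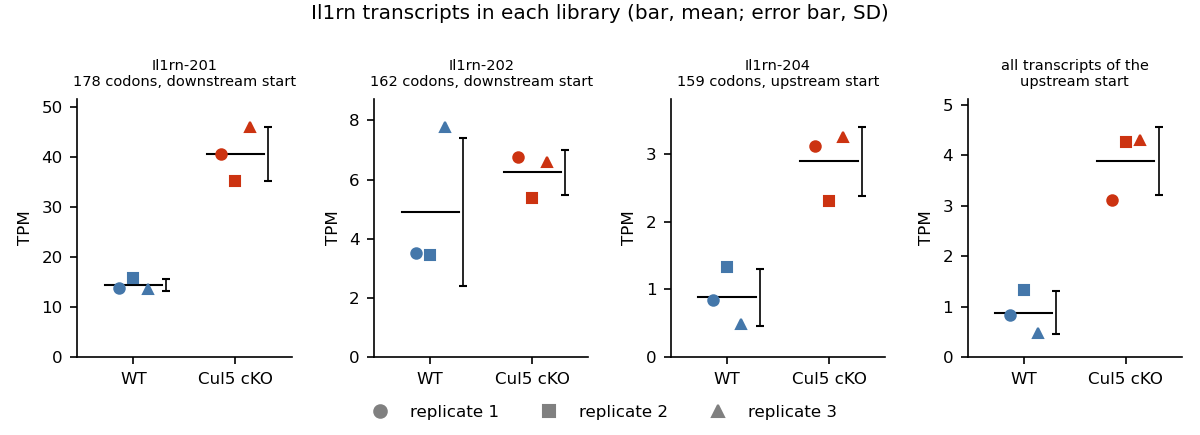
TPM of Il1rn transcripts in each library, for the 178-codon, 162-codon and 159-codon forms and for all transcripts of the upstream start, with the group mean as a bar and the SD as an error bar. The 178-codon form and the upstream transcripts show no overlap between WT (blue) and Cul5 cKO (red), whereas the 162-codon form does.

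Transcripts of Il1r1, whose product the antagonist occupies, and of Il1r2 were barely detected. Il1r1, the signalling receptor for IL-1α and IL-1β, had 12, 4 and 1 counts in WT and 15, 23 and 6 in Cul5 cKO. Its CPM values were 0.512, 0.173 and 0.253 against 0.651, 1.01 and 0.267, and the groups overlapped. The log2 fold change was 0.94 ± 0.631 (SE), and 0.47 without Cul5 cKO replicate 2. Il1r2, the decoy receptor, had 11, 3 and 0 counts in WT and 0, 5 and 12 in Cul5 cKO, did not pass the expression filter and was not tested. Its level differed more between libraries of 1 genotype than between genotypes.

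Il1rap, the accessory chain shared by the IL-1, IL-33 and IL-36 receptors, overlapped between genotypes. It was at 9.39, 12.2 and 8.86 CPM in WT, against 8.82, 9.99 and 11.6 CPM in the Cul5 cKO libraries, with a log2 fold change of -0.03 ± 0.171 (SE). The membrane form with 570 codons made up 80.1 ± 7.76% of Il1rap TPM in WT and 85.3 ± 5.26% in Cul5 cKO (SD, n = 3). The 360-codon form, which encodes the soluble accessory protein, made up 16.8 ± 4.74% and 14.2 ± 5.69%, so the split differed by less than its spread. By shares of estimated counts this form made up 9.21 ± 3.12% and 7.52 ± 3.25%.

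Il1rl1, the receptor for the alarmin IL-33, had the largest fitted fold change of the members, and 1 library carried it. Its level was 0.555, 1.04 and 1.77 CPM in WT. In Cul5 cKO it was 0.999, 8.76 and 1.33 CPM, so replicates 1 and 3 lay within the WT range. The log2 fold change of 1.93 ± 0.931 (SE) fell to 0.25 without Cul5 cKO replicate 2. The protease genes Cpa3 and Mcpt8, of the mast cell and basophil list, were high in the same library. Cpa3 was at 13.8 CPM in Cul5 cKO replicate 2 and at most 0.311 CPM elsewhere, and Mcpt8 was at 9.86 CPM there and at most 0.356 CPM elsewhere. The Fc receptor gene Ms4a2 was at 8.11 CPM there and at most 0.667 CPM elsewhere, and the granule peroxidase gene Mpo at 39.8 CPM against at most 1.02 CPM. Their part in the Il1rl1 value was not tested.

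The soluble form of ST2 was also counted mainly in that library. Transcripts of 337 codons, which encode it, had 37.8 estimated counts in Cul5 cKO replicate 2 and between 0 and 1.88 in the other 5 libraries. Transcripts of 567 codons, the membrane receptor, had 162 counts there, 12.7, 21.8 and 6.00 in WT, and 23.1 and 28.8 in the other Cul5 cKO libraries. The distal start whose window is printed above had 27.0 estimated counts in Cul5 cKO replicate 2 and at most 1.88 elsewhere.

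**Figure D3:**
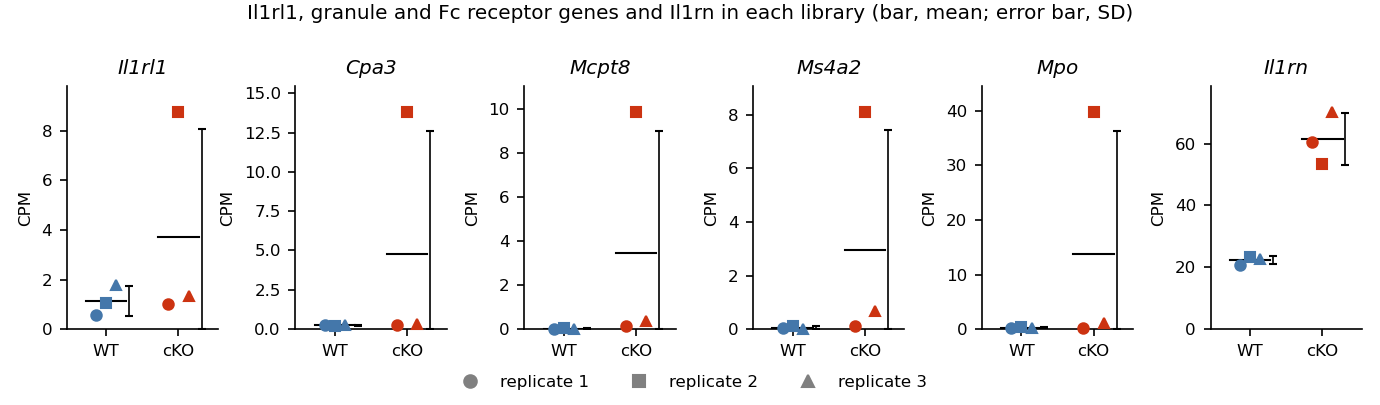
CPM of Il1rl1, of Cpa3, Mcpt8, Ms4a2 and Mpo, and of Il1rn in each library, with the group mean as a bar and the SD as an error bar that ends at 0. Cul5 cKO replicate 2 (red square) is far above the other libraries for Il1rl1 and the 4 granule and Fc receptor genes. It is the lowest Cul5 cKO library for Il1rn.

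Il1rl2, the receptor for the IL-36 cytokines, was at 2.05, 3.33 and 4.55 CPM in WT, against 1.48, 3.72 and 2.67 CPM in the Cul5 cKO libraries. The groups overlapped, and the log2 fold change was -0.26 ± 0.422 (SE). Il18r1, the ligand-binding chain for IL-18, was at 6.11, 6.79 and 7.84 CPM in WT, against 4.65, 6.40 and 5.20 CPM in the Cul5 cKO libraries. Its log2 fold change was -0.33 ± 0.191 (SE), and the highest Cul5 cKO library lay above the lowest WT library. Il18rap, its signalling partner, was at 5.34, 7.74 and 4.55 CPM in WT, against 4.60, 6.14 and 6.76 CPM in the Cul5 cKO libraries, with a log2 fold change of -0.05 ± 0.248 (SE). Both chains of the IL-18 receptor overlapped between genotypes.

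Sigirr, the inhibitory receptor, had the fitted fold change nearest to 0 of the 8 members tested. It was at 43.4, 46.7 and 46.1 CPM in WT, against 48.4, 41.2 and 46.2 CPM in the Cul5 cKO libraries, with a log2 fold change of -0.00 ± 0.0821 (SE). Its TPM was less even, at 67.2 ± 10.9 in WT and 57.2 ± 9.2 in Cul5 cKO. Its transcripts with no annotated coding length, or with a coding length that is not a whole number of codons, took from 20.6 to 63.7 TPM. The authors' table gave a difference of -0.02 log2 CPM between genotypes, but at a lower level. It held Sigirr at 3.48, 3.87 and 3.54 log2 CPM in WT, below its Il1rn values, whereas summed counts put Sigirr above Il1rn in WT. The cause of this difference in level was not tested.

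Levels were also ordered per length, in TPM summed over all transcripts of a gene. For Sigirr, transcripts without a coding length in whole codons gave 62.3 ± 16.6% of TPM in WT and 43.3 ± 5.41% in Cul5 cKO (SD, n = 3). Its rank rests in part on these transcripts. In WT, Sigirr had the highest mean TPM, followed by Il1rn at 21.1 ± 2.39 and Il1rap at 3.56 ± 0.667 (SD, n = 3), and these steps were separate except that Il1rap was not separate from Il18r1 (3.21 ± 0.328). Il18r1 was not separate from Il18rap (2.57 ± 0.854), nor Il18rap from Il1rl2 (1.63 ± 0.523), whereas Il1rl2 was separate from Il1rl1. Il1rl1 (0.427 ± 0.295), Il1r2 (0.226 ± 0.271) and Il1r1 (0.0808 ± 0.0431) came last and were not separate from each other in order. In Cul5 cKO, Il1rn was at 52.5 ± 5.04 TPM and was not separate from Sigirr. Il1rap (3.42 ± 0.311), Il18rap (2.64 ± 0.644), Il18r1 (2.52 ± 0.588), Il1rl1 (1.5 ± 2.03) and Il1rl2 (1.03 ± 0.455) followed, and no neighbours among these 5 were separate.

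Of the members, 6 lie in 1 cluster on chromosome 1, from 40074079 to 40551705 (GRCm38), in the order Il1r2, Il1r1, Il1rl2, Il1rl1, Il18r1 and Il18rap. Il1rl1 ends 137 bp before Il18r1 starts. Il18r1 did not follow Il1rl1 in Cul5 cKO replicate 2, where it was at 6.40 CPM, within the range of the other libraries. Il1rap lies on chromosome 16 and Sigirr on chromosome 7. Of 64 other genes within 200 kb of a member, 20 passed the filter and 1 was a DEG, Hras, which encodes a small GTPase and lies near Sigirr. Hras was at 40.0, 36.6 and 36.9 CPM in WT, against 52.9, 49.4 and 56.1 CPM in the Cul5 cKO libraries, with a log2 fold change of 0.48 ± 0.0776 (SE) and an adjusted p of 0.0432 (edgeR quasi-likelihood). That call was lost without WT replicate 2 (adjusted p = 0.181), WT replicate 3 (0.184), or any 1 Cul5 cKO library (0.0734, 0.0903 and 0.186). Psd4, the nearest tested gene downstream of Il1rn, had an edgeR adjusted p of 0.158 with a log2 fold change of 0.17 ± 0.0558, and was named after its values were seen.

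**Figure D4:**
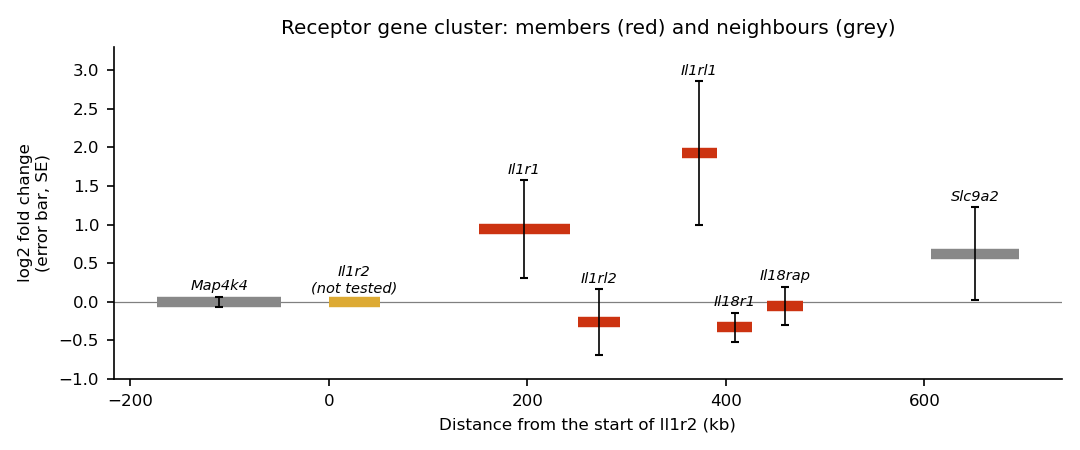
The receptor cluster on chromosome 1, with each gene's span on the horizontal axis as distance in kb from the start of Il1r2 and its log2 fold change (Cul5 cKO over WT) on the vertical axis, the error bar showing the SE. Il1rl1 stands highest with the widest error, its neighbours Il18r1 and Il1rl2 lie below 0, and Il1r2 (yellow) was not tested and is drawn at 0 only to mark its place.

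The wider pathway was read from a list. It held 33 ligands, processing enzymes, adaptors, kinases and ligases, of which 23 passed the filter. Of these, 1 was a DEG, higher in Cul5 cKO, where 1.03% of all genes tested were DEGs and 0.611% were higher. An unadjusted p under 0.05 (edgeR quasi-likelihood) was met by 5 of the 23 and by 21.3% of all genes tested. DESeq2 also called 1 of the list. The median log2 fold change was 0.04, against -0.01 over all genes tested. The DEG was Peli2, which encodes a Pellino ubiquitin ligase that acts on IRAK kinases. It was at 17.7, 13.8 and 14.7 CPM in WT, against 44.1, 37.5 and 37.5 CPM in the Cul5 cKO libraries, with a log2 fold change of 1.35 ± 0.125 (SE) and an adjusted p of 0.0105 (edgeR quasi-likelihood). That call was lost without WT replicate 2 (adjusted p = 0.0754), WT replicate 3 (0.0789) or Cul5 cKO replicate 3 (0.0776).

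Of the ligands, Il1a and Il1f9, which encodes IL-36γ, passed the filter. Il1a was at 4.01, 16.1 and 11.1 CPM in WT, against 6.17, 26.6 and 29.8 CPM in the Cul5 cKO libraries, and replicate 1 was lowest in both genotypes. Its log2 fold change was 1.02 ± 0.660 (SE) with an adjusted p of 0.419 (edgeR quasi-likelihood). Il1f9 was at 0.982, 0.606 and 1.52 CPM in WT, against 1.13, 0.570 and 0.489 CPM in the Cul5 cKO libraries, and the groups overlapped (log2 fold change -0.34 ± 0.481). Il33, Il1f5, Il1f6, Il1f8 and Il1f10 had no counts, and Il18 did not exceed the floor anywhere. Il1b was below 1 CPM in every library and highest, at 0.833 CPM, in Cul5 cKO replicate 2, the library with the granule genes. Among processing genes, Gsdmd had the lowest log2 fold change, -0.282 ± 0.384. Pycard had a log2 fold change of -0.279 ± 0.135 and Il18bp of -0.21 ± 0.209, and all 4 tested overlapped between genotypes. Of the adaptors and kinases, Myd88 was at 0.16 ± 0.0609 and Irak1 at -0.12 ± 0.0562 on the log2 scale. Peli1, a relative of Peli2, had the lowest value, -0.47 ± 0.298, with an adjusted p of 0.413 (edgeR quasi-likelihood).

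**Figure D5:**
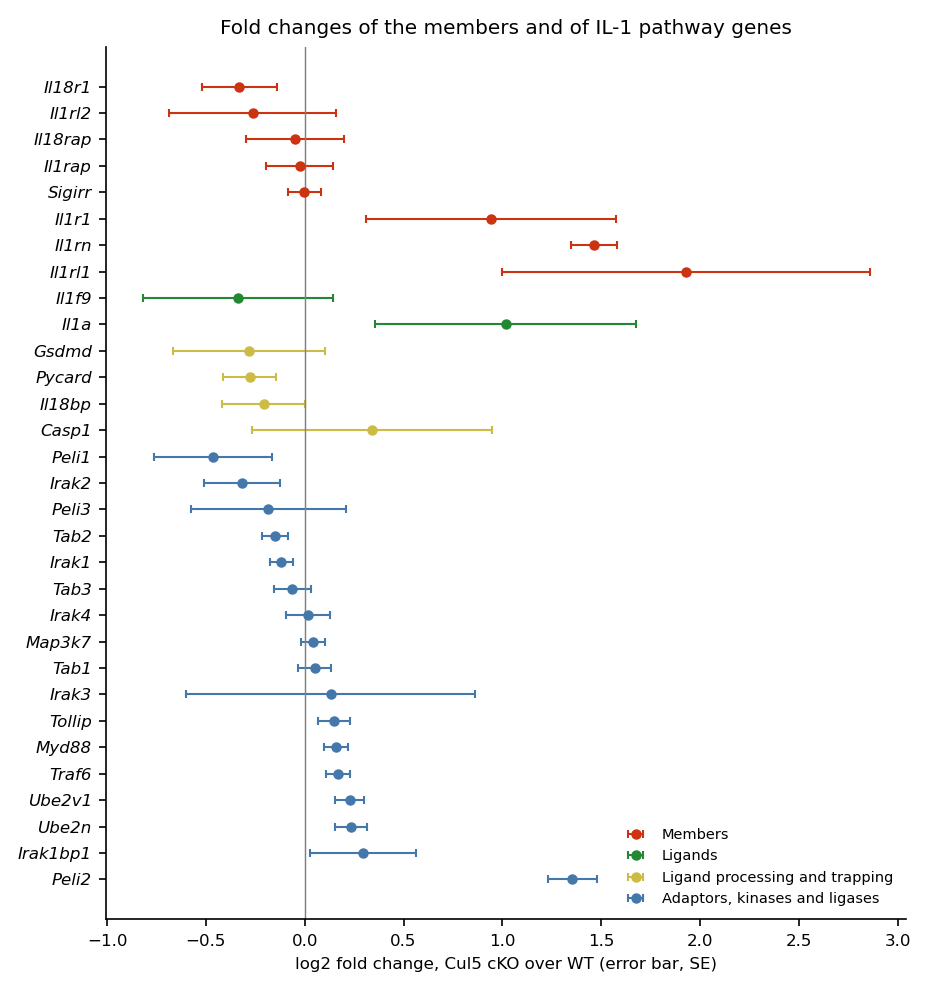
Log2 fold change (Cul5 cKO over WT) with its SE for the 8 members tested (red) and the 23 pathway genes tested, grouped as ligands (green), ligand processing and trapping (yellow) and adaptors, kinases and ligases (blue). Il1rn and Peli2 have values above 1 with short error bars, while Il1rl1, Il1r1 and Il1a have long ones.

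The genes whose pattern was most like that of Il1rn over the 6 samples were sought by Pearson correlation of log2 CPM among 11615 genes with a mean of at least 1 CPM. They were Lrrc59 (r = 0.999), Antxr2 (0.997), Slc2a1 (0.997), Ciapin1 (0.997) and Trim27 (0.996). The 6 samples fall into 2 genotypes, and 245 genes had r above 0.95, so these values describe the step between genotypes. The size of the step is not part of r. In the same order, the log2 fold changes were 0.41, 0.96, 0.62, 0.13 and 0.15, against 1.46 for Il1rn. Ciapin1 and Trim27 were not DEGs.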

How the data were processed

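Poly-A RNA of 3 WT and 3 Cul5 cKO cultures was sequenced as 50 bp single-end reads on a BGISEQ-500. The authors quantified transcripts with kallisto 0.46.2 against GRCm38 and deposited an estimated count and a TPM value per transcript, and a gene-level table of log2 CPM with TMM scaling made with edgeR 3.34.0. That table also holds the authors' own fold changes and p-values, which were not used. Estimated counts were summed by gene through GENCODE vM21 (97.7% of 119414 transcripts matched) and rounded, and TPM was summed unrounded. Genes passing filterByExpr were tested with edgeR 4.0.16 (quasi-likelihood, TMM, Benjamini-Hochberg, threshold 0.05). Other settings, with limma 3.58.1 and DESeq2 1.42.0, are given in the closing section. CPM uses TMM-adjusted library sizes. Promoter windows came from RefSeq.

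The members and lists were chosen with earlier results of these data known. Named genes were Cul5, the members, called or extreme pathway genes with a mean of at least 1 CPM, called neighbours, and the 5 genes most correlated with Il1rn. Myd88, Irak1, Pycard and Il18bp were added as examples after their values were seen. Same-numbered replicates did not deviate together in every pair (r = 0.37, 0.21 and 0.02).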

Additional observations from a re-analysis of the deposited data

How the results depend on the processing

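The number of DEGs between genotypes, 133 as reported, was 693 with DESeq2, 228 with no filter beyond 1 count, 58 on counts scaled from TPM, 42 with limma on the authors' table, and 27 and 30 with limma on TPM with pseudocounts of 1 and 0.1. It was 848 with the replicate block, 1153 with replicates 2 and 3 alone, and 2 to 316 with 1 library left out. The labels do not say whether WT and Cul5 cKO cultures of the same number share a litter or a batch. The Il1rn log2 fold change was positive under all 18 alternatives, 1.28 with limma on log2(TPM + 1), 1.43 with the replicate block, and 1.36 to 1.56 with 1 library left out. Pathway DEGs numbered 3 (Il1a, Peli1 and Peli2) with the block and with replicates 2 and 3 alone, 0 on scaled counts and on both TPM fits, and 0 to 1 with 1 library left out. Neighbouring DEGs numbered 0 with library size alone, scaled counts, the authors' table and both TPM fits, and 0 to 1 with 1 library left out. The pathway alternatives were applied to neighbours and Cul5 after seeing the data, and Cul5 was a DEG in all 18. With shares of estimated counts, the upstream start gave 6.46% of Il1rn in WT and 8.03% in Cul5 cKO, with the genotypes overlapping, the 178-codon form 83.8% in WT and 87.1% in Cul5 cKO, and the 360-codon Il1rap form 9.21% in WT and 7.52% in Cul5 cKO. Counts per kilobase of exon put 2 members at another rank in WT and 3 in Cul5 cKO, and leaving out 1 library 0 to 2 and 2 to 4. The cause of these changes was not tested. Depth limits Il1r1 and Il1r2, with 0 to 23 counts.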
